A study of Mus musculus with 18 samples.

Results

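Translesion synthesis lets a cell copy past a DNA lesion that stops its replicative polymerases. The genes described here are 9 that encode the machinery of this process in the mouse: Polh, Poli, Polk and Rev1 (the Y-family of polymerases), Rev3l and Mad2l2 (the catalytic and an accessory subunit of polymerase zeta), Rad18 and Ube2a (a ubiquitin ligase and its conjugating enzyme) and Primpol (a primase-polymerase). They were chosen by name. Of 10 names given, 9 matched a gene symbol; Rad6a is neither a symbol nor a synonym in the RefSeq gene table used, and in human the name RAD6A is used for UBE2A, the counterpart of Ube2a. For each gene the RefSeq protein-coding transcript with the highest mean CPM (a gene's counts scaled to a common library total) was kept. The 9 genes are part of 14620 genes in the mRNA table and 13718 in the RNAome table, and all 9 passed the filter on low counts in both.

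When a replication fork stalls at a lesion, RAD18 with its RAD6 partner attaches ubiquitin to the sliding clamp PCNA, and the modified clamp recruits Y-family polymerases that insert a base opposite the lesion. REV1 acts largely as a scaffold that brings in polymerase zeta, whose REV3L subunit extends from the inserted base. PRIMPOL restarts synthesis beyond a lesion by making a new primer. Cisplatin binds neighbouring purines within a strand or across both strands, and bypass of its adducts is known to involve polymerase eta, REV1 and polymerase zeta.

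The study used embryonic stem (ES) cells of C57BL/6 mice, deficient in the purine salvage enzyme HPRT, at passages 19 to 22, kept for 2 passages on feeder cells and 1 on gelatin before the experiment. The treated group received 2.5 µM cisplatin (RNA samples 8.3.3, 8.4.3 and 8.5.3) and the control group the solvent DMSO (RNA samples 8.4.16, 8.5.16 and 8.6.16), so HPRT deficiency is common to both groups. The sources used here do not state the exposure time. Nor is it said that replicates are separate cultures, so each p-value reflects the spread of these samples alone, which may be technical. Each of the 6 RNA samples was sequenced as mRNA libraries, made with a kit that selects poly(A) RNA, and as RNAome libraries, made from total RNA depleted of ribosomal RNA, giving the 12 libraries used.

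Counts per library ran from 21341820 to 28777288 with cisplatin and from 20365963 to 31604098 in control in mRNA sequencing, and from 71146210 to 94373096 with cisplatin and from 43404675 to 68757893 in control in RNAome sequencing. On the RNAome genes tested, the cisplatin libraries held 14634929 to 19256015 counts, and control libraries 8.4.16, 8.5.16 and 8.6.16 held 4965593, 13576134 and 6665745, so the smallest control library limits the precision there. The p53 targets Cdkn1a, Mdm2 and Ccng1 were higher with cisplatin by 1.16, 1.29 and 1.15 on the log2 scale in mRNA sequencing and by 1.30, 1.14 and 1.29 in RNAome sequencing (edgeR adjusted p of 0.0060 or lower). Of 10 p53 targets listed 10 were higher in mRNA and 8 in RNAome sequencing, against 18.6% and 1.01% of all genes tested. Hprt held 41 counts over the cisplatin and 34 over the control mRNA libraries. Summed over 10 ES cell markers, the level was 4800 to 5010 CPM with cisplatin and 5540 to 5830 CPM in control (mRNA), and 342 to 356 against 400 to 438 CPM (RNAome). The 10 markers did not shift alike: in mRNA sequencing their log2 changes ran from -0.70 to 0.03. There edgeR called 7 of the 10 lower and 0 higher, against 19.5% lower of all genes, and in RNAome sequencing it called 0. Feeder fibroblast markers (8 of 10 in the mRNA table) summed to 58.3 to 101 CPM with cisplatin and 60.9 to 83.1 CPM in control, and trophectoderm and endoderm markers (7 of 10) to 104 to 117 and 73.3 to 102 CPM. In the RNAome table, where 5 and 4 of these 10 markers each are listed, the sums were 3.84 to 4.84 against 2.25 to 3.23 CPM for feeders and 11.4 to 12 against 8.36 to 13.3 CPM for trophectoderm and endoderm. Of the defining markers, the feeder genes Lum and Dcn and the trophectoderm and endoderm genes Cdx2, Elf5 and Foxa2 were listed in neither table. In mRNA sequencing edgeR called 1 of 8 feeder markers tested higher and 0 lower. It called 1 of 6 trophectoderm and endoderm markers tested higher and 0 lower, against 18.6% higher of all genes. Their log2 changes ran from -0.28 to 0.57 and from -0.48 to 0.37. In RNAome sequencing it called none of the 1 and 2 tested. The part of these marker shifts in the results below was not tested.

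The question of the comparison was which of the bypass genes differ in RNA level after cisplatin. In mRNA sequencing Polk and Rev1 were higher with cisplatin, Rev3l was lower, and 6 genes did not pass the test, which was edgeR's quasi-likelihood test with p-values adjusted by Benjamini-Hochberg over all genes of the table at a threshold of 0.05. Over all 13924 genes tested, 18.6% were higher and 19.5% lower, so 2 and 1 of 9 is close to the background of this table. Polk was 2.13-fold higher and Rev1 1.27-fold higher, and Rev3l was at 0.81 times its control level. The median log2 change of the 9 genes was -0.04, against 0.01 over all genes, and 3 of the 9 were above 0. In RNAome sequencing 1 of the 9 genes was higher, again Polk, and 0 were lower, against 1.01% higher and 1.1% lower of 9861 genes tested. DESeq2, a second count test, gave 1 higher and 0 lower there too, and 2 genes, Polk and Rev1, had an unadjusted p under 0.05, both upward, against 13.9% of all genes in either direction. In bulk RNA such as this, fewer cells of a type and less RNA per cell cannot be told apart.

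**Figure D1:**
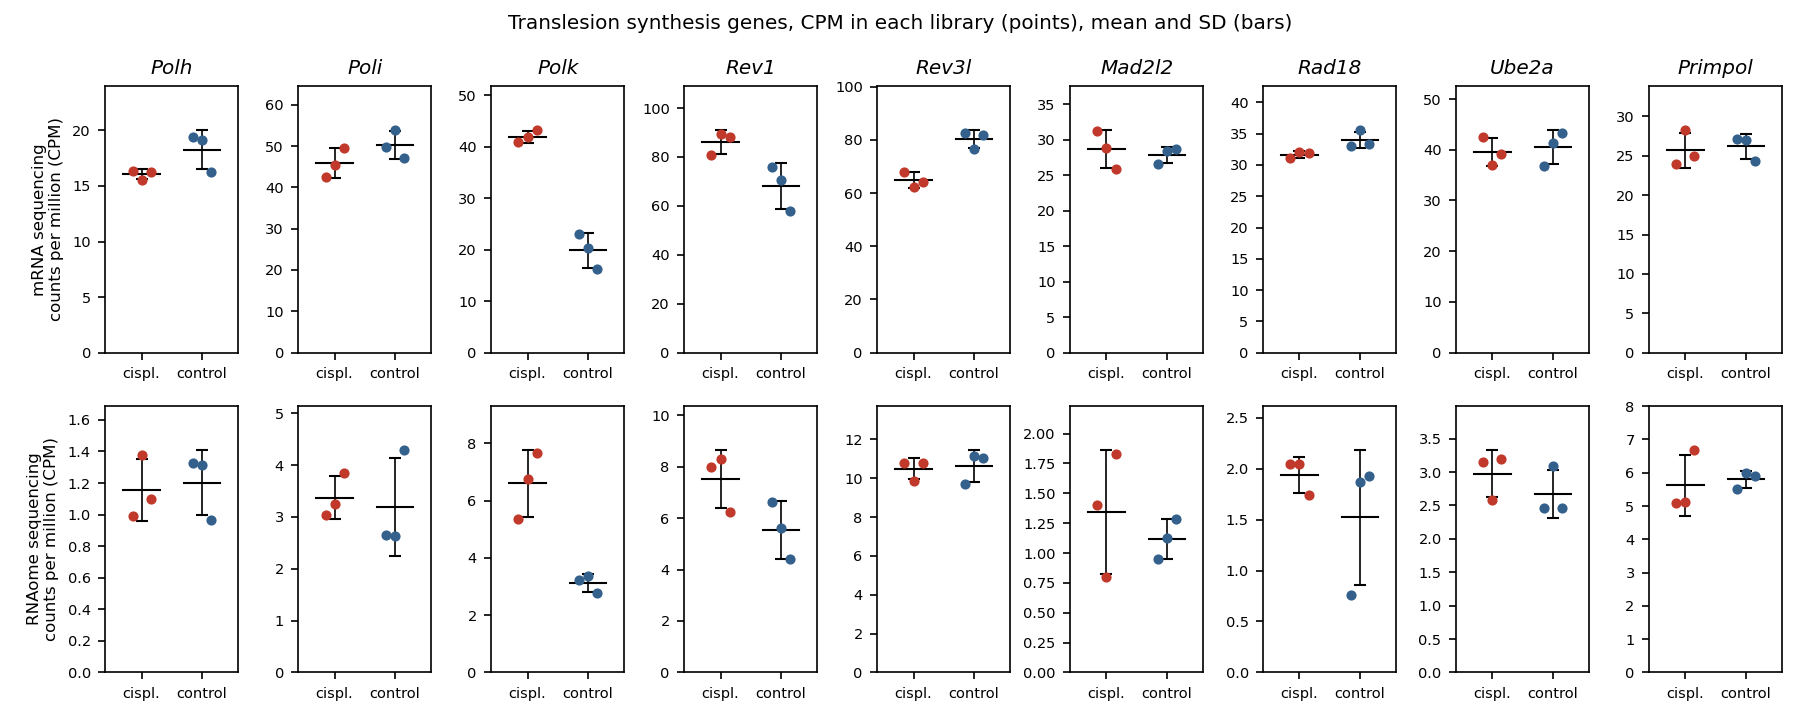
CPM of the 9 genes in each library, mRNA sequencing above and RNAome sequencing below, with cisplatin on the left of each panel and control on the right; points are libraries, and bars the mean and SD of 3. The Polk panels show no overlap of the groups in either assay (40.9 to 43.2 against 16.2 to 23.1 CPM in mRNA sequencing), while in the Ube2a and Primpol panels the points of the groups interleave.

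Polk encodes polymerase kappa, a Y-family enzyme known for accurate bypass of bulky adducts on the minor groove side of guanine and for extending from primer ends. Its transcript (NM_012048, chromosome 13, bases 97250644 to 97312440 on the minus strand of mm9) stood at 40.9, 41.9 and 43.2 CPM in cisplatin samples 8.3.3, 8.4.3 and 8.5.3, against 23.1, 20.3 and 16.2 CPM in control samples 8.4.16, 8.5.16 and 8.6.16. Every cisplatin library lay above every control library, and the cisplatin libraries lay closer together than the controls. The means were 42.0 ± 1.16 CPM with cisplatin and 19.9 ± 3.45 CPM in control (SD, n = 3 each). The log2 change was 1.09 ± 0.10 (SE, edgeR adjusted p = 5.87e-07), which ranks 210 by p among the genes tested.

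In RNAome sequencing Polk had 5.38, 6.75 and 7.68 CPM in the cisplatin libraries (92, 152 and 84 reads), against 3.23, 3.37 and 2.79 CPM in the control libraries (17, 36 and 26 reads). The groups again did not overlap, although the counts were far lower than in mRNA sequencing. The TMM scaling factors, which adjust the library totals, ran from 0.626 (cisplatin 8.5.3) to 1.40 (control 8.6.16) here. In mRNA sequencing they ran from 0.964 to 1.035, so the RNAome CPM values rest more on the scaling. The log2 change was 1.07 ± 0.22 (SE, edgeR adjusted p = 0.00818), and Polk was the one member of 9 whose groups did not overlap in this assay, against 19.2% of all genes. The call was lost when cisplatin 8.4.3 or control 8.6.16 was left out (adjusted p of 0.0601 and 0.0611, log2 changes of 1.04 and 0.98), and it was kept without control 8.4.16, the smallest library (1.08, adjusted p = 0.0140).

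Rev1 encodes a deoxycytidyl transferase whose C-terminal part binds the other Y-family polymerases and polymerase zeta. Its transcript (NM_019570, chromosome 1, bases 38109632 to 38186507 on the minus strand) stood at 80.6, 89.5 and 88.1 CPM in the cisplatin mRNA libraries, against 76.1, 70.5 and 57.9 CPM in the controls. The groups did not overlap, but the lowest cisplatin and the highest control library were close. The means were 86.1 ± 4.78 and 68.2 ± 9.31 CPM (SD, n = 3 each), and the log2 change was 0.34 ± 0.09 (SE, edgeR adjusted p = 0.00569). In RNAome sequencing Rev1 had 8.00, 8.31 and 6.22 CPM with cisplatin and 6.64, 5.62 and 4.39 CPM in control. There the groups overlapped, since cisplatin 8.5.3 lay below control 8.4.16, and the change of 0.48 ± 0.20 (SE) did not pass (edgeR adjusted p = 0.271).

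The windows around the annotated starts of these 2 genes are shown because they are the ones whose transcripts were higher with cisplatin, and because Polk has 2 starts in RefSeq with unlike base composition. Each window runs from 250 bases before to 50 bases after a start, is taken from RefSeq on build GRCm38.p6, is written 5′ to 3′ along the gene, and has in capitals the matches to GC box GGGCGG and to the p53 half-site, searched on both strands.

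Polk, upstream start, chr13:96542530-96542829, minus strand: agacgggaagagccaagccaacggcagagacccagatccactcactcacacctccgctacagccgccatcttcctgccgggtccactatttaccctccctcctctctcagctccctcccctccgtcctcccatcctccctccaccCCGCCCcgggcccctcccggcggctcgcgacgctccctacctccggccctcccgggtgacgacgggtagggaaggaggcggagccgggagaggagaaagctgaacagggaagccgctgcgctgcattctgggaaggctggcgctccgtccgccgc

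Polk, downstream start, chr13:96519138-96519437, minus strand: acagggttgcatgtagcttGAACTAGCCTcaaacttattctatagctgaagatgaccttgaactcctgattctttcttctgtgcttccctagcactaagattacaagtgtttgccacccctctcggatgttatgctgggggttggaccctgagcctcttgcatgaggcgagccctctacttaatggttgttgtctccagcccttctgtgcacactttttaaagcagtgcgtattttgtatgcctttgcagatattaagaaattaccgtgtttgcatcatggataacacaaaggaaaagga

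Rev1, chr1:38129617-38129916, minus strand: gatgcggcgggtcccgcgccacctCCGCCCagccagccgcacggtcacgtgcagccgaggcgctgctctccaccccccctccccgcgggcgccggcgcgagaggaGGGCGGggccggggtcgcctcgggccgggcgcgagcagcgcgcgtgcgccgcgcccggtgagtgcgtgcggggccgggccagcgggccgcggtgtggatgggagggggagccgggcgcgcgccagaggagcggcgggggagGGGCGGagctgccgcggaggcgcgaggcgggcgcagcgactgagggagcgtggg

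The upstream Polk window is 68.7% G and C and has 1 GC box, while the downstream one is 44.3% G and C, has none, and has 1 match to the p53 half-site, GAACTAGCCT, whose first base lies 231 bases before the start. The downstream Polk start lies within the gene. Whether RNA starts there, or the bases before it are intron of the transcript from the upstream start, was not tested. The Rev1 window is 83% G and C and has 3 GC boxes and no p53 half-site. Over all 32851 windows the median share of G and C was 52.7%. The windows searched were 10, of 7 of the genes: Mad2l2, Polh, Polk, Primpol, Rad18, Rev1 and Ube2a. Of these 10, 7 hold a GC box, against 35.7% of all windows, and 2 hold a CCAAT box, against 37.4%. The p53 half-site was found in 2 of the 10, against 8.36% of all windows. Besides the Polk match it was GGGCAAGCCT in the Primpol window, 24 bases before the start, and Primpol did not pass the test in either assay. The ETS motif CCGGAAG (8.86% of all windows) was in 1 of the 2 Rad18 windows, which overlap each other, and the NRF1 core GCGCATGC (2.71%) was in the Polh window, in 2 places where matches on both strands overlap. The E2F forms TTTCCCGC (1.07%) and TTTGGCGC (0.514%) and the CRE motif TGACGTCA (1.79%) were in none of the 10. A match is a match of letters and not evidence of binding.

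Polh encodes polymerase eta, which inserts bases opposite cisplatin crosslinks of neighbouring guanines and is the enzyme missing in the human disorder xeroderma pigmentosum variant. Its transcript (NM_030715, chromosome 17, bases 46308953 to 46339574, minus strand) stood at 16.3, 15.5 and 16.3 CPM with cisplatin, against 19.4, 19.1 and 16.3 CPM in control (mRNA). Control 8.6.16 lay among the cisplatin libraries, and the other controls above them. The log2 change was -0.19 ± 0.10 (SE, 95% interval -0.48 to 0.11, edgeR adjusted p = 0.18). In RNAome sequencing Polh had 0.993, 1.38 and 1.10 CPM with cisplatin and 1.33, 1.31 and 0.964 CPM in control, from 7 to 31 reads a library. The groups interleaved, and the log2 change was -0.01 ± 0.35, with a 95% interval of -0.98 to 0.95.

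Poli encodes polymerase iota, an error-prone relative of polymerase eta. Its transcript (NM_001136090, chromosome 18, bases 70668334 to 70690274, minus strand) stood at 42.4, 45.5 and 49.6 CPM with cisplatin and 49.7, 53.8 and 47.2 CPM in control (mRNA). The highest cisplatin library lay above the lowest control library. The log2 change was -0.14 ± 0.08 (SE, 95% interval -0.35 to 0.08, edgeR adjusted p = 0.177), and in RNAome sequencing it was 0.04 ± 0.25, from 3.04, 3.24 and 3.84 CPM with cisplatin and 2.66, 2.62 and 4.29 CPM in control. Poli and Rad18 each have a second RefSeq row (NM_011972 and NM_021385) with nearly the same mean CPM. The rows of a gene share exons and are not separate measurements, and 1 row per gene was used.

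Rev3l encodes the catalytic subunit of polymerase zeta, which extends from bases placed opposite lesions and is the largest protein of the group. Its gene (NM_011264, chromosome 10, bases 39451924 to 39595017, plus strand) spans 143094 bp, the longest of the 9, and the transcript used for length scaling has 10789 nt. Rev3l stood at 68.1, 62.3 and 64.1 CPM in the cisplatin mRNA libraries, against 82.5, 76.4 and 81.8 CPM in the controls. Every cisplatin library was below every control library. The means were 64.8 ± 2.95 and 80.2 ± 3.32 CPM (SD, n = 3 each), and Rev3l fell by 0.31 ± 0.06 on the log2 scale (SE, edgeR adjusted p = 0.00107). In RNAome sequencing Rev3l had 10.8, 9.86 and 10.8 CPM with cisplatin and 9.68, 11.1 and 11.0 CPM in control. These overlapped, with a log2 change of -0.03 ± 0.17 (SE, 95% interval -0.49 to 0.43), an interval that holds the value of mRNA sequencing.

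Mad2l2 encodes REV7, the adaptor that joins REV3L to REV1 and that also serves in the shieldin complex at double-strand breaks. Its transcript (NM_027985, chromosome 4, bases 147504493 to 147519808, plus strand) stood at 31.2, 28.9 and 25.9 CPM with cisplatin and 26.6, 28.4 and 28.7 CPM in control (mRNA). The cisplatin libraries spread to both sides of the controls, and the log2 change was 0.04 ± 0.09 (SE, 95% interval -0.21 to 0.29, edgeR adjusted p = 0.767). In RNAome sequencing it was 0.14 ± 0.38, from 5 to 24 reads a library. Of the other subunits of polymerase zeta, which it shares with polymerase delta, Pold2 was at -0.03 and Pold3 at -0.17 on the log2 scale in mRNA sequencing, and neither passed (adjusted p of 0.696 and 0.0504).

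Rad18 encodes the ligase that ubiquitinates PCNA at stalled forks. Its transcript (NM_001167730, chromosome 6, bases 112569844 to 112646680, minus strand) stood at 31.1, 32.0 and 31.9 CPM with cisplatin and 33.1, 35.5 and 33.4 CPM in control (mRNA). The groups did not overlap, but the difference was small, at -0.11 ± 0.08 on the log2 scale (SE, 95% interval -0.32 to 0.11), and did not pass (edgeR adjusted p = 0.299). With Polk, Rev1 and Rev3l this makes 4 of 9 genes without overlap in mRNA sequencing, against 49% of all genes. In RNAome sequencing Rad18 had 2.04, 2.04 and 1.74 CPM with cisplatin and 0.759, 1.87 and 1.93 CPM in control. The low control value rests on 4 reads in 8.4.16, and the log2 change was 0.26 ± 0.31.

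Ube2a encodes one of the mouse RAD6 enzymes, the ubiquitin-conjugating partner of RAD18. Its transcript (NM_019668, chromosome X, bases 34414353 to 34424210, plus strand) stood at 42.6, 37.1 and 39.2 CPM with cisplatin and 36.8, 41.4 and 43.3 CPM in control (mRNA), with full overlap and a log2 change of -0.04 ± 0.08 (SE, 95% interval -0.26 to 0.19, edgeR adjusted p = 0.764). In RNAome sequencing the change was 0.12 ± 0.25. Ube2b, which encodes the other RAD6 enzyme, was at -0.06 in mRNA and -0.08 in RNAome sequencing and did not pass in either.

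Primpol encodes the primase-polymerase that reprimes downstream of lesions. Its transcript (NM_001001184; chromosome 8, bases 47660933 to 47702566, minus strand, where GENCODE vM1 names the gene Ccdc111) stood at 23.9, 28.2 and 25 CPM with cisplatin and 27.2, 27.1 and 24.4 CPM in control (mRNA). The groups interleaved, and the log2 change was -0.02 ± 0.09 (SE, 95% interval -0.28 to 0.23, edgeR adjusted p = 0.867). In RNAome sequencing Primpol had 5.08, 5.11 and 6.68 CPM with cisplatin and 5.51, 6.00 and 5.89 CPM in control, a log2 change of -0.07 ± 0.20.

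**Figure D2:**
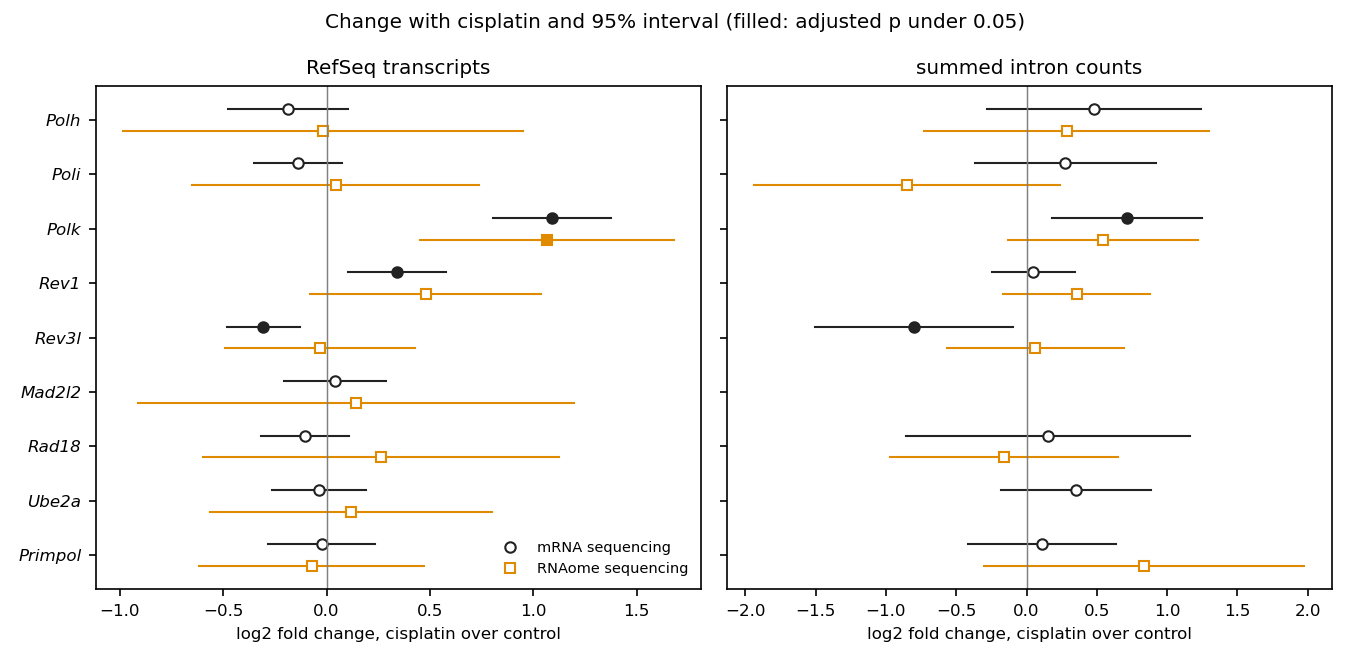
Log2 fold change, cisplatin over control, of each gene with its 95% interval (from the SE with 4 residual degrees of freedom), for RefSeq transcripts on the left and summed intron counts on the right; black circles are mRNA and orange squares RNAome sequencing, and filled symbols passed an adjusted p of 0.05. Polk lies near 1 in both assays on the left, at 1.09 and 1.07, and the RNAome intervals are wider than the mRNA ones for each gene on the left.

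The assays were compared directly by testing the difference of the cisplatin effects, RNAome minus mRNA, in a fit of all 12 libraries. None of the 9 genes had a difference that passed, and none had an unadjusted p under 0.05. For Polk the difference was -0.05 ± 0.24 on the log2 scale and for Rev1 0.15 ± 0.21 (SE). The smallest p belonged to Rev3l, whose change was -0.03 in RNAome and -0.31 in mRNA sequencing, each in the fit of its own assay. The fit of all 12 libraries gave a difference of 0.24 ± 0.14 (edgeR adjusted p = 0.912). Over all 9718 genes tested in both assays the background was 0%: edgeR called 0 genes, while 518 had an unadjusted p under 0.05. It called 23 with the RNA sample as a block, 32 without control 8.4.16 and 21 without control 8.5.16, none of the 9 among them. The lack of a call does not show that the effects were alike.

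Levels can be set against each other once scaled by transcript length. The length taken was that of the gene's longest protein-coding transcript in GENCODE vM1, which need not be the RefSeq transcript counted. The order of the genes depends on these lengths. In the mRNA libraries Ube2a was the highest, at 23.8 CPM per kilobase of transcript with cisplatin and 24.3 in control. Next with cisplatin came Rev1 at 20.2 and Mad2l2 at 18.7, whose libraries overlapped, then Poli at 13.1 and Rad18 at 12.3, which also overlapped, and Polk at 9.93, above Primpol (6.74), Polh (6.25) and Rev3l (6.01), which overlapped their neighbours. In control the order was Ube2a, Mad2l2 (18.2), Rev1 (16), Poli (14.3), Rad18 (13.2), Rev3l (7.43), Polh (7.11), Primpol (6.87) and Polk (4.70), with Mad2l2 and Rev1, Rev1 and Poli, Poli and Rad18, and the run from Rev3l to Primpol overlapping. Polk was thus the lowest of the 9 in control, below every library of the next gene, and the sixth with cisplatin, above every library of Primpol, the next gene.

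In the RNAome libraries the length-scaled levels ran from 1.79 (Ube2a) to 0.45 (Polh) CPM per kilobase with cisplatin and from 1.61 (Ube2a) to 0.468 (Polh) in control. With cisplatin Polk was the third, at 1.56, and in control the sixth, at 0.740. Primpol, among the lower of the 9 in mRNA sequencing, was the fourth with cisplatin (1.47) and the second in control (1.52). Most neighbours in this order overlapped, with breaks with cisplatin after Primpol and after Rad18 and none in control.

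**Figure D3:**
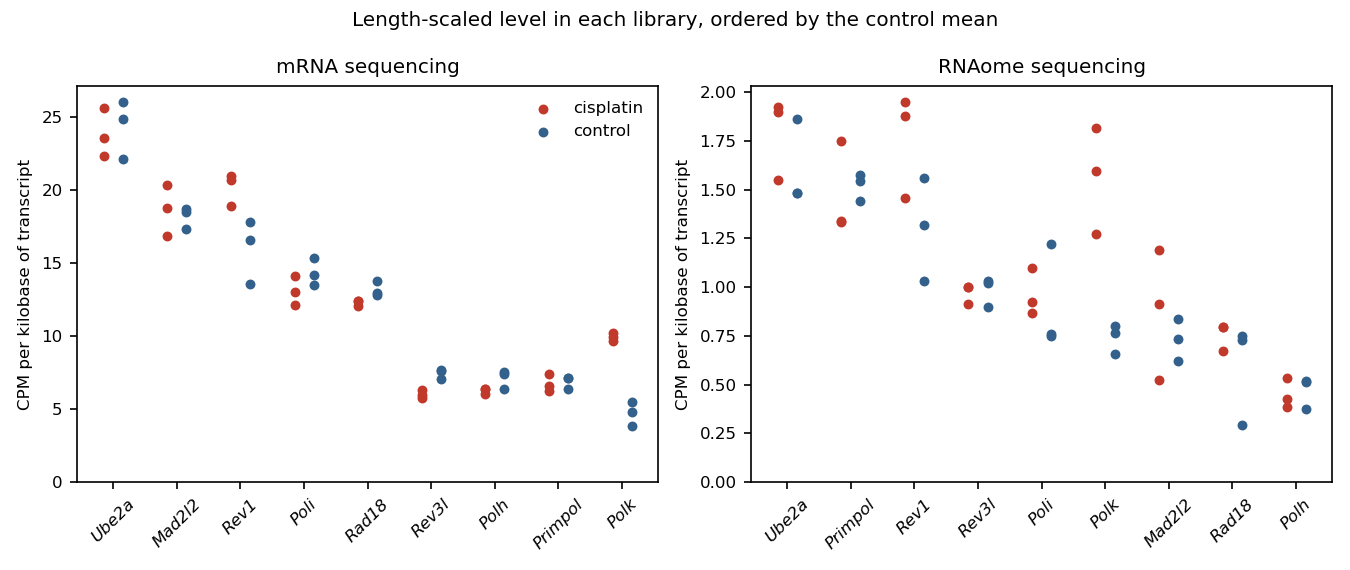
Level in CPM per kilobase of transcript of each gene in each library, mRNA sequencing on the left and RNAome sequencing on the right, cisplatin points left of control points, with genes ordered by their control mean. In mRNA sequencing the Polk points with cisplatin (9.67 to 10.2) stand clear of its control points (3.84 to 5.46), which are the lowest of all genes.

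The tables also count reads in genomic regions between RefSeq exons, and those lying within introns of 1 gene were summed per gene, as a measure of RNA that still holds intron sequence. In mRNA sequencing 8 of the 9 genes had enough intron counts to test, all but Mad2l2, and 1 was higher and 1 lower, against 6.06% higher and 5.31% lower of 6022 genes tested. Polk introns had 69, 74 and 56 reads with cisplatin and 34, 61 and 23 in control, or 103.5, 101.8 and 106.9 CPM of intron counts against 66.9, 81.3 and 38.4. The groups did not overlap, and the log2 change was 0.71 ± 0.19 (SE, edgeR adjusted p = 0.00842). Without control 8.6.16, the lowest control, it was 0.46 (adjusted p = 0.111), and the call was lost. The groups did not overlap in intron CPM for 4 of the 8 genes, Polk, Rev3l, Polh and Poli, against 27.9% of all genes.

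Rev3l intron counts were 18, 20 and 15 with cisplatin and 21, 41 and 28 in control, all from 1 region of 6581 bp near the end of the gene. In intron CPM the groups did not overlap, at 27.0, 27.5 and 28.6 with cisplatin and 41.3, 54.7 and 46.8 in control, and Rev3l introns fell by 0.80 ± 0.25 on the log2 scale (SE, edgeR adjusted p = 0.0293). This call was lost without any 1 of the cisplatin samples or without control 8.5.16, with adjusted p up to 0.16, while the log2 change stayed between -0.82 and -0.67. In a separate fit of 10753 single intron regions, the same Rev3l reads were at -0.78 ± 0.26 (SE, edgeR adjusted p = 0.0549) and did not pass. Rev1 introns stood at 300.1, 323.4 and 345.6 intron CPM with cisplatin, against 285.2, 307.9 and 338.9 in control, a log2 change of 0.05 ± 0.11 (adjusted p = 0.842), while its RefSeq transcript was higher. From the abundance table, the authors' other count table, the value was 0.27 (adjusted p = 0.137). Whether the changes of Rev1 introns and transcript differ was not tested. The Rev1 sum joins regions with unlike changes: of 5 single regions tested in mRNA sequencing, 3 were above 0. The lowest was at -0.31 ± 0.14 (SE, 270 reads with cisplatin and 326 in control). The highest was at 0.94 ± 0.39 (43 and 22 reads), and edgeR called 0 of the 5. Introns of the other 5 genes tested were at 0.48 (Polh), 0.35 (Ube2a), 0.27 (Poli), 0.15 (Rad18) and 0.11 (Primpol) on the log2 scale, and none passed. Mad2l2 introns held 5 to 6 reads a library with cisplatin and 2 to 5 in control.

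In RNAome sequencing 7 of the 9 genes could be tested by introns, and edgeR called 0, against 1.11% of 4309 genes in either direction. Polk introns had 21.6, 20.7 and 31.4 intron CPM with cisplatin and 20.4, 18.4 and 11.4 in control, a log2 change of 0.55 ± 0.24 (SE, edgeR adjusted p = 0.311). The lowest cisplatin library was close to the highest control library. Poli introns, with 7 to 11 reads a library with cisplatin and 4 to 13 in control, were at -0.85 ± 0.39 (edgeR adjusted p = 0.334). Polk and Poli were the 2 of 7 genes with an unadjusted p under 0.05, against 13.2% of all genes. Rev3l introns, counted here in 12 regions, were at 0.06 ± 0.23. The sums of Polk and Rev1 joined 9 and 13 regions here, against 4 and 7 in mRNA sequencing. The sums of both assays thus do not cover the same stretches of these genes. Introns of Primpol were at 0.84 ± 0.41, of Rev1 at 0.36 ± 0.19, of Polh at 0.29 ± 0.37 and of Rad18 at -0.16 ± 0.29, while Mad2l2 and Ube2a had too few reads to test, at most 5 and 18 in any library. Control 8.4.16 had a TMM scaling factor of 0.429 in the intron table, against 0.921 to 1.43 for the other libraries, and without it the Polk value was 0.65 (edgeR adjusted p = 0.31). Without control 8.6.16 the Polk value was 0.30 (edgeR adjusted p = 0.705), and without cisplatin 8.5.3 it was 0.34 (edgeR adjusted p = 0.602).

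Within Polk, 1 of the 3 single intron regions tested was called in mRNA sequencing, against 3.29% higher of 10753 regions tested. This region, chromosome 13, bases 97252447 to 97253445 (mm9), is 999 bp long, with its middle 59.5 kb from the gene's start, and held 74 reads with cisplatin and 23 in control (log2 change 1.64 ± 0.34, SE, edgeR adjusted p = 0.000328). Its reads are also part of the summed Polk introns, so the call of the sum and that of the region are not separate results. The Polk sum without this region was not tested. The same region held 11 reads with cisplatin and 2 in control in RNAome sequencing, too few to test. The neighbouring tested region, 56.9 kb from the start, was at 0.32 ± 0.35 in mRNA sequencing (adjusted p = 0.707). A region 30.0 kb from the start was tested in RNAome sequencing alone, where it held 41 reads with cisplatin and 9 in control and was at 1.295 ± 0.52 (adjusted p = 0.382). The region nearest the start, of 23139 bp, held 43 and 43 reads in mRNA sequencing (-0.02 ± 0.33) and 92 and 44 in RNAome sequencing (0.21 ± 0.34). In Rev1 the first intron region, of 20994 bp, held 292 reads with cisplatin and 101 in control in RNAome sequencing, where library sizes differ, for a log2 change of 0.62 ± 0.29 (adjusted p = 0.479). In RNAome sequencing 6 single regions could be tested, 2 of Polk and 4 of Rev1, and edgeR called 0 of them, against 0.81% of 3581 regions.

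**Figure D4:**
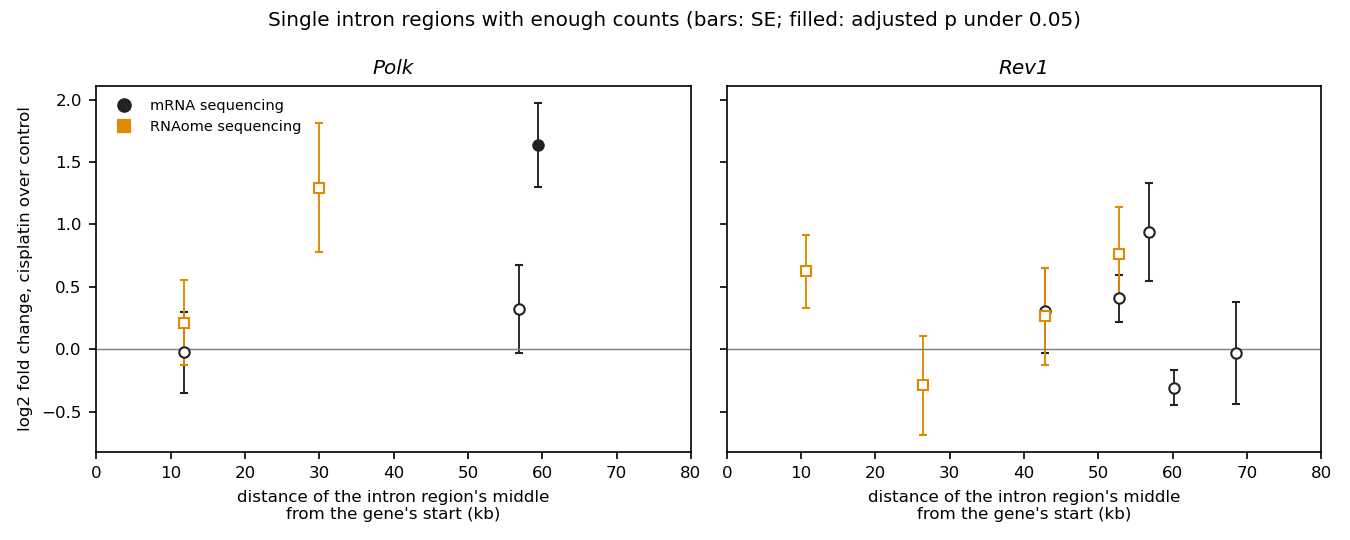
Log2 fold change, cisplatin over control, of single intron regions of Polk (left) and Rev1 (right) against the distance in kb of the region's middle from the gene's start, with SE bars; black circles are mRNA and orange squares RNAome sequencing, and a filled symbol passed an adjusted p of 0.05. In Polk the regions 11.7 kb from the start lie near 0 in both assays, the mRNA region at 56.9 kb lies at 0.32, and that at 59.5 kb at 1.64.

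The 9 genes act with a wider set of proteins, and 49 further genes listed by role were looked up in the same fit. In mRNA sequencing 48 were tested, of which 7 were higher and 14 lower and 27 did not pass, with a median log2 change of -0.04 against 0.01 over all genes. These counts stand beside the 18.6% higher and 19.5% lower of all genes given above. In RNAome sequencing 46 were tested, and edgeR called 0 in either direction, as did DESeq2, against 1.01% higher and 1.1% lower of all genes. At an unadjusted p under 0.05 were 9 of the 46, against 13.9% of all genes.

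Among other polymerases that can bypass or fill gaps, Poll, which encodes polymerase lambda of base excision and end-joining repair, was at 32.3 ± 3.97 CPM with cisplatin and 23.8 ± 0.80 CPM in control (SD, n = 3 each), with a log2 change of 0.44 ± 0.10 (SE, adjusted p = 0.00173). Polm, its relative polymerase mu, was higher by 0.31, and Polq, polymerase theta of microhomology-mediated end joining, was lower (-0.27). Polb did not pass at 0.01. In RNAome sequencing Poll was at 0.88 ± 0.37 and Polq at -0.32 ± 0.28, and neither passed.

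Of the ligases and conjugating enzymes that modify PCNA or its partners, 1 was higher and 3 lower of 11 tested, Rad18 and Ube2a among the 7 not called. The shares over all genes were 18.6% higher and 19.5% lower. Hltf, a ligase that extends ubiquitin chains on PCNA and remodels forks, was at 58.6 ± 2.58 CPM with cisplatin and 83.5 ± 5.58 CPM in control, and fell by 0.51 ± 0.07 on the log2 scale (SE, edgeR adjusted p = 1.57e-05). Shprh, its relative, fell by 0.26 and Ube2n, the UBC13 enzyme of chain extension, by 0.19. Rchy1, which encodes PIRH2, a ligase known in human cells to act on polymerase eta, rose by 0.31. Hltf was at -0.55 ± 0.16 in RNAome sequencing and did not pass there (adjusted p = 0.0941).

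Of the genes that take ubiquitin off PCNA or unload it, 3 of 5 tested were lower and 0 higher by edgeR, against 19.5% lower of all genes. At an unadjusted p under 0.05 were all 5, against 46% of all genes. Usp7, a deubiquitinase of many targets that include p53 and MDM2, was at 396.9 ± 17.0 CPM with cisplatin and 532.3 ± 24.3 CPM in control (log2 change -0.42 ± 0.05, adjusted p = 3.21e-06). Usp10 fell by 0.46 and Usp1, the main PCNA deubiquitinase, by 0.17. Wdr48, the USP1 cofactor, and Atad5, which unloads PCNA, were at -0.14 each and did not pass (adjusted p of 0.0588 and 0.0815). In RNAome sequencing Usp10 was at -1.005, Usp7 at -0.47, Usp1 at -0.21, Wdr48 at -0.02 and Atad5 at 0.05. None of the 5 was called by edgeR, and 2 had an unadjusted p under 0.05, against 13.9% of all genes.

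In the clamp and its loader, Pcna itself was at -0.05 ± 0.05 in mRNA sequencing and 0.11 ± 0.17 in RNAome sequencing, and passed in neither. Rfc1, the large loader subunit, fell by 0.25, and Pclaf, a PCNA-binding factor, rose by 0.32 in mRNA sequencing; the other 5 of 7 did not pass. Of the replicative polymerases, 3 of 10 were higher and 3 lower, against 18.6% higher and 19.5% lower of all genes. Pola1, the catalytic subunit of polymerase alpha, was at 122.6 ± 2.55 CPM with cisplatin and 193.5 ± 17.9 CPM in control, and fell by 0.66 ± 0.06 (adjusted p = 6.07e-07). Prim2, the large primase subunit, fell by 0.35 and Pole4, a small subunit of polymerase epsilon, by 0.24. Pold4, the smallest subunit of polymerase delta, rose by 1.13 ± 0.21 (adjusted p = 0.000407) from a low level, at 4.93 ± 0.69 CPM with cisplatin and 2.21 ± 0.28 CPM in control. In RNAome sequencing the 9 replicative genes tested ranged from -0.52 (Prim2) to 0.38 (Pole2) on the log2 scale with a median of 0.14, and none passed.

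Among fork remodelers and regulators, 3 of 11 tested were lower and 0 higher by edgeR, against 19.5% lower and 18.6% higher of all genes. At an unadjusted p under 0.05 were 4 of the 11, a share below the 46% of all genes. Zranb3, a fork remodeler that binds ubiquitinated PCNA, fell by 0.38 ± 0.07, Nbn by 0.23 and Rpa1, the large subunit of the single-strand binding protein that recruits RAD18, by 0.17.

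**Figure D5:**
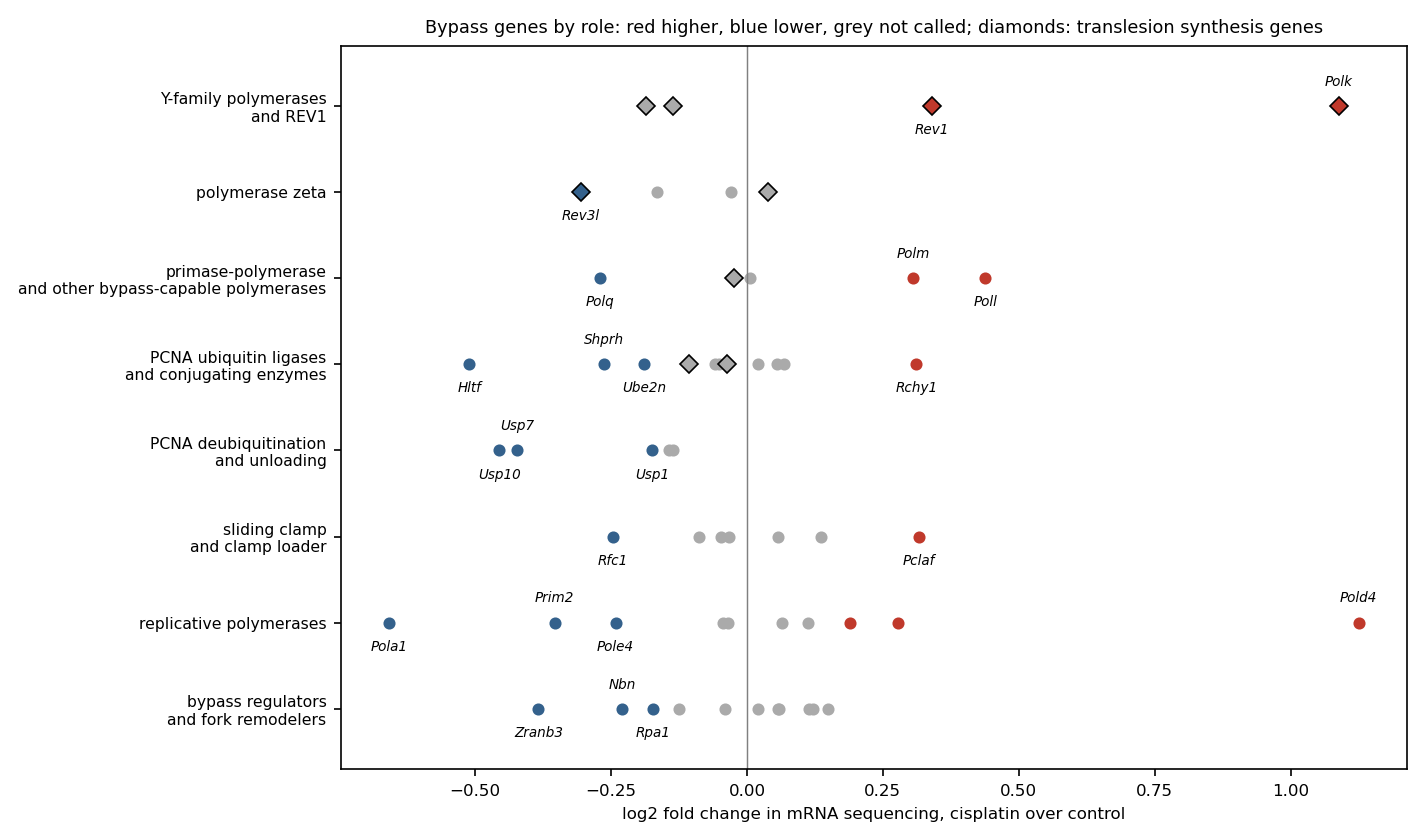
Log2 fold change in mRNA sequencing, cisplatin over control, of each tested bypass gene, in rows by role; red marks higher, blue lower and grey not called at an adjusted p of 0.05, and diamonds are the translesion synthesis genes. Polk, at 1.09, and Pold4, at 1.13, lie farthest to the right, Pola1, at -0.66, farthest to the left, and all 5 genes of PCNA deubiquitination and unloading lie left of 0.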

How the data were processed

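The values used were read counts per feature deposited by the authors, with no normalization, for mRNA and RNAome sequencing. The small RNA tables were not used here. Per the submitters' processing notes, Bowtie, TopHat and edgeR and the build mm9 were used; the sources used here give no versions or roles, no counting rule and no use of strand, so reads of a gene and of a gene overlapping it on the other strand may not be told apart. Total RNA was extracted with a column kit, per the labels' protocols.

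RefSeq rows were matched to symbols by a RefSeq table of GRCm38.p6 (18453 of 18943 rows in mRNA and 17334 of 17787 in RNAome), and 1 row per gene was kept. The authors' expression tables were used, with their abundance tables as an alternative; 5 (mRNA) and 6 (RNAome) of the 9 genes have equal counts in both. The test was that of edgeR 4.0.16 under R 4.3.3 (TMM scaling, filterByExpr by treatment, robust quasi-likelihood test, two-sided, Benjamini-Hochberg adjusted p under 0.05), with 3 libraries per group. CPM uses TMM-scaled totals of the genes tested, so CPM values of the assays and of intron counts are on separate scales. The SE is the absolute log2 change divided by the square root of F, and intervals take 4 residual degrees of freedom. These intervals are wider than the p-values of the test imply. For Rev1 in RNAome sequencing the unadjusted edgeR p was 0.0265, while the interval ran from -0.08 to 1.04. Regions within introns of 1 gene were found with GENCODE vM1 on NCBIM37, the assembly of mm9, and gene loci and transcript lengths also come from it. Alternatives were DESeq2 1.42.0, RLE scaling, no filter on low counts, the abundance tables, other row choices, blocks and leaving out each library. The scripts were tested on simulated data.

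Named genes were the 9 genes, up to 4 called genes with the smallest adjusted p per list and assay, Cdkn1a, Mdm2, Ccng1 and Hprt; values given of uncalled list genes (Pold2, Pold3, Ube2b, Polb, Wdr48, Atad5, Pole2 and Pcna) were added to these after they were seen. One gene was left out of the lists and is not reported here. The p53 and marker lists are given as counts, sums or the genes above, and list genes not named enter the counts alone. The 9 genes and the lists were chosen with earlier results of these data known. The mRNA and RNAome libraries of a code come from 1 RNA sample, per the labels, so their codes pair them; the correlation of their deviations from group means was 0.0694 to 0.253 over the 6 pairs.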

Additional observations from a re-analysis of the deposited data

How the results depend on the processing

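In mRNA sequencing the calls of Polk, Rev1 and Rev3l kept their direction and their side of the threshold in all 13 alternatives each. Their log2 changes were 0.96 to 1.19, 0.23 to 0.41 and -0.35 to -0.28. These genes have 1 RefSeq protein-coding row each, so the other row choices left their own counts as they were. Of the 6 genes not called, 5 stayed so in all 13, and Polh became a lower call (-0.27, adjusted p = 0.0355), which makes 2 lower, in the fit with a replicate block by the middle number of the sample code. That number is shared by 2 pairs of cisplatin and control samples and its meaning is not given; deviations of same-numbered samples correlated at 0.116 and 0.159 (mRNA) and -0.0967 and 0.0843 (RNAome), so the numbers are not taken as pairing. That block called 3090 genes higher and 3295 lower in mRNA sequencing, against 2584 and 2712 without it, and 53 and 77 in RNAome sequencing, against 100 and 108.

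Leaving out 1 library at a time gave 0 to 1 of the 9 genes higher in RNAome sequencing, and 0 to 1 higher and 0 to 1 lower by intron counts in mRNA sequencing. The other pathway genes, for which these alternatives were added after seeing the data, numbered 4 to 8 higher and 9 to 16 lower in mRNA sequencing and 0 to 1 lower in RNAome sequencing, and DESeq2 gave 4 higher in mRNA sequencing. Over all RNAome genes, 36.4% of the calls of DESeq2 (56 higher and 98 lower) were higher, against 48.1% of those of edgeR. The difference between the assays passed for 0 of the 9 genes in each alternative run. With the RNA sample as replicate block, 23 genes over the whole table were called. In all of these the log2 change with cisplatin was lower in RNAome than in mRNA sequencing. Scaling the RNAome intron counts by the RefSeq genes gave 10 higher and 12 lower calls over all genes, against 31 and 17, and 0 for the 9 genes by edgeR. Without the filter on low counts the median over all RNAome intron values was 0.11, against 0.01. The causes of these shifts were not tested. RNAome counts as low as 4 reads a library limit Rad18, Mad2l2 and Polh there.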
